A study of Mus musculus with 27 samples.

Results

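The sites described are 1760 binding sites of the co-repressor ETO2 in mouse erythroleukaemia (MEL) cells at which the co-repressor IRF2BP2 was not enriched, here called ETO2-only sites. They are 1 of 3 classes in a deposited list of 13229 sites, beside 2730 shared sites of both factors and 8739 IRF2BP2-only sites. The class of a site was chosen by the study from the measured ChIP-Seq coverage of ETO2 and IRF2BP2 around its centre by K-means clustering with 3 clusters. Coverage, fold enrichment over IgG, interval width and the distance to sites of the other classes are therefore described without a test, and tests are given only for DNA sequence, genome position and RNA levels, which the clustering did not use.

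ETO2, encoded by Cbfa2t3, does not bind DNA by itself. In erythroid progenitors it is held on chromatin by a complex in which LDB1 joins GATA1, a zinc finger factor that reads a GATA motif, to TAL1 and its E protein partner, which read an E-box or its end, the bases CTG. ETO2 recruits histone deacetylases and other co-repressors, and it keeps genes of late erythroid differentiation low until differentiation starts. IRF2BP2 is a partner of ETO2, and GFI1B and LSD1, encoded by Kdm1a, also bind ETO2 in these cells. In the study GFI1B appeared to repress targets of the complex. For LSD1 the study concluded that it generally acts as an activator in erythroid differentiation.

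The cells were MEL cells, a transformed progenitor line that can be induced to differentiate towards red cells. ETO2 binding came from an earlier ChIP-Seq library that is not among the samples of this series, IRF2BP2 binding from 1 library with a custom-made antibody set against normal rat IgG, and neither factor has a replicate. RNA-Seq libraries served as the independent measure. Eto2 WT (2 libraries), Eto2 KD-sh2 (2) and Eto2 KD-sh3 (2) test the knockdown of Cbfa2t3 with separate short hairpins, Irf2bp2 WT (2) and Irf2bp2 KD-sh1 (2) that of Irf2bp2 with 1 hairpin, Gfi1b WT (2) and Gfi1b KD (2) short interfering RNAs against Gfi1b (the methods name a pair, and the labels do not say which was used in which library), and Lsd1 WT (1) and Lsd1 KD (2) the knockdown of Kdm1a. MEL non-induced (2) and MEL induced (2) compare the cells before and after induced differentiation. The groups called WT are MEL cells with a non-targeting RNA and carry no deletion. The study's methods call the sequenced samples independent biological replicates, the labels do not say whether they came from separate cultures, and p-values measure the spread between these libraries.

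The DNA at ETO2-only sites is shown first because the motif around the centre is what the sites share most. The sequences were read from the mm9 genome (NCBIM37), 5′ to 3′ on the strand of the motif. Capitals mark 1 GATA hexamer (AGATAA or AGATAG or TGATAA or TGATAG) in each window, any further one being left in lower case, and, where a CTG stands 6, 7 or 8 bases before it, that CTG too. This pair is called the composite motif below. The first set shows sites with some of the highest fold enrichments of the class, and windows that touch an annotated exon are not shown.
Aff3 intron, chr1:38504615-38504671, plus strand: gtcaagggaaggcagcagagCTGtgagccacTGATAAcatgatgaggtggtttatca
Prim2 intron, chr1:33631485-33631541, minus strand: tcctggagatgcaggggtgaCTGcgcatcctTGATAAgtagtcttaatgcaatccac
Ikzf2 intron, chr1:69606473-69606529, minus strand: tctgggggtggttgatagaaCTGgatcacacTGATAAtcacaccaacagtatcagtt
Gm5121 upstream, chr9:57155494-57155548, plus strand: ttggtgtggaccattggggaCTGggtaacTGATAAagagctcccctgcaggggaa
Chrm3 upstream, chr13:10053553-10053598, minus strand: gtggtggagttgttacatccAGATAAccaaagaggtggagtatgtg
Ddit4 upstream, chr10:59432955-59433000, plus strand: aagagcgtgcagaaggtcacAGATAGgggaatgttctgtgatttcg
Aff3, Prim2 and Ikzf2 show the CTG with 8 bases between it and the hexamer, Gm5121 the same pair with 6 bases, and the windows of Chrm3 and Ddit4 a hexamer alone.

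The second set shows ETO2-only sites of genes that the text returns to. They are genes that rose in the Cbfa2t3 KD (Aqp8, Col4a3, Acp5, Mybpc3), a carrier of haem synthesis (Tmem14c) and regulators of blood cells (Gata2, Runx1, Gfi1b, Irf2bp2).
Aqp8 upstream, chr7:130602933-130602989, minus strand: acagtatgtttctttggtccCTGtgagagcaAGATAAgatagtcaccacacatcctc
Col4a3 intron, chr1:82644737-82644793, minus strand: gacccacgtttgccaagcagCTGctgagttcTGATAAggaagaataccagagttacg
Acp5 promoter, chr9:21940293-21940338, minus strand: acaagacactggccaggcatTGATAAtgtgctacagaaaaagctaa
Mybpc3 intron, chr2:90958930-90958975, minus strand: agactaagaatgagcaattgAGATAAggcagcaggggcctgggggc
Tmem14c intron, chr13:41114237-41114292, plus strand: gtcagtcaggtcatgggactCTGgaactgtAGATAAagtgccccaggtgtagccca
Gata2 intron, chr6:88153162-88153218, plus strand: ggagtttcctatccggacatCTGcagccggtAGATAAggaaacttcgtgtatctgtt
Runx1 upstream, chr16:92874425-92874481, plus strand: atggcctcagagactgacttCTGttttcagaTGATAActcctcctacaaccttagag
Gfi1b promoter, chr2:28477597-28477653, minus strand: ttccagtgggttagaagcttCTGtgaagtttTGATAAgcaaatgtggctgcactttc
Irf2bp2 upstream, chr8:129150489-129150545, plus strand: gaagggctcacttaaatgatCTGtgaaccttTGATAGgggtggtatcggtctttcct
In Gata2 and Col4a3 the CTG ends a whole E-box, CATCTG and CAGCTG, whereas in Aqp8, Tmem14c, Gfi1b and Runx1 the bases before it do not complete one. The Gata2 window lies in the intronic element that is known for its joined E-box and GATA motif.

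Nearly all ETO2-only sites held a GATA hexamer close to the centre. In a window that reached 100 bp from the centre in both directions, 1561 of 1760 sites (88.7%, 95% Wilson interval 87.1 to 90.1%) held at least 1 of the 4 hexamers on either strand, against 30.9% of windows of the same length 2000 bp away from the centres. The shared sites had it in 90.4% and the IRF2BP2-only sites in 44.5% (Fisher's exact test, two-sided, adjusted over 18 pattern tests, exact p = 0.0861 and exact p = 1.27e-280). AGATAA was the most frequent form and stood in 56.1% of ETO2-only windows, 5.2 times its share in the flanks. TGATAA stood in 36.5%, AGATAG in 23.4% and TGATAG in 16.2%. Repeats of the motif were common, since 899 sites (51.1%) held 2 or more hexamers, a share indistinguishable from the 51.3% of shared sites (difference of −0.239 percentage points, interval −3.23 to 2.75). The nearest hexamer lay a median of 22.5 bp from the centre in the 1657 sites that had one within 250 bp, as in the shared sites with 21.5 bp, and 52.5 bp away in the IRF2BP2-only sites.

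The composite motif stood in 597 ETO2-only sites (33.9%, interval 31.7 to 36.2%). This was 16.4 times its share of 2.07% in the flanks. The share in shared sites could not be told from it (32.7%, difference of 1.17 percentage points, interval −1.64 to 4.01, exact p = 0.45), and the IRF2BP2-only sites in 6.29% (difference of 27.6 points, exact p = 6.91e-193). When the sites below the median fold of their class were left out, the difference from shared sites turned to −1.14 points. The share was similar wherever a site lay, as 34.2% of ETO2-only sites within 5 kb of a transcription start site (TSS), 33.9% of those 5 to 50 kb away and 33.7% of those farther away held the motif. With the sites cut into 3 groups by fold enrichment it was 32.1, 31 and 38.7% from the lowest to the highest group.

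**Figure D1:**
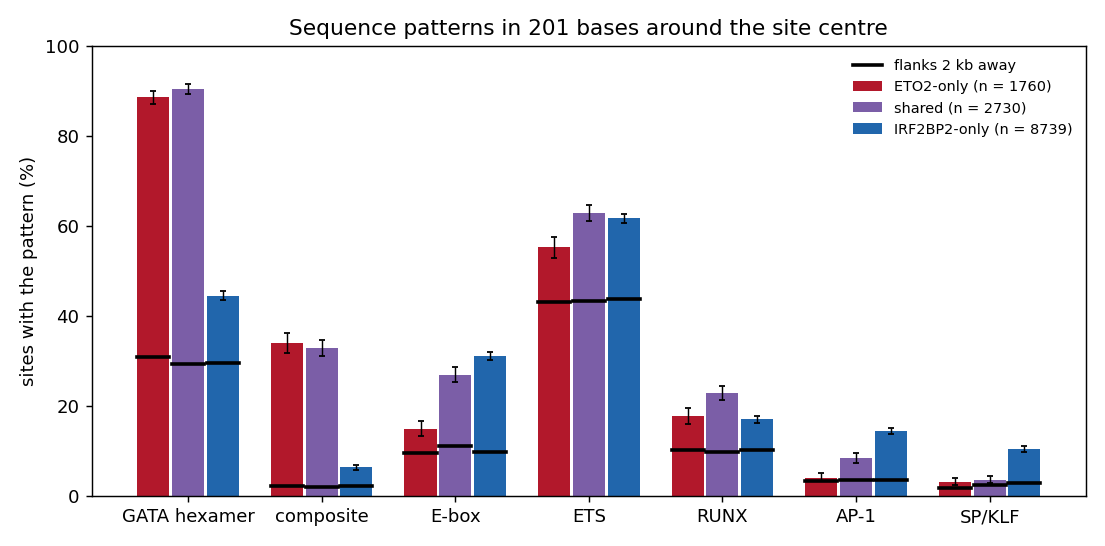
Share of sites (vertical axis, %) whose window around the centre holds each sequence pattern, for 1760 ETO2-only, 2730 shared and 8739 IRF2BP2-only sites, with 95% Wilson intervals as error bars and the share in windows 2000 bp away as black lines. ETO2-only sites hold the GATA hexamer in 88.7% and the composite motif in 33.9%, against 90.4 and 32.7% of shared sites, and the E-box in 14.8% against 26.8%.

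The spacing of the composite was narrow. A CTG stood exactly 8 bases before a hexamer in 377 ETO2-only sites (21.4%, interval 19.6 to 23.4%), 7 bases before it in 10.3% and 9 bases before it in 7.78%. Each of the other 18 spacings from 0 to 20 bases was found in 3.47 to 5.74% of sites, and a spacing of 6 bases, which the composite pattern allows, in 3.64%. A pattern with 7 to 9 bases, chosen after seeing the data, held 660 sites (37.5%), against 37.0% of shared and 6.61% of IRF2BP2-only sites. The CTG was seldom part of a whole E-box. In 54 of the 597 composites (9.05%) it was the end of a whole E-box of the form CANCTG, and in 28 of them of CAGCTG.

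**Figure D2:**
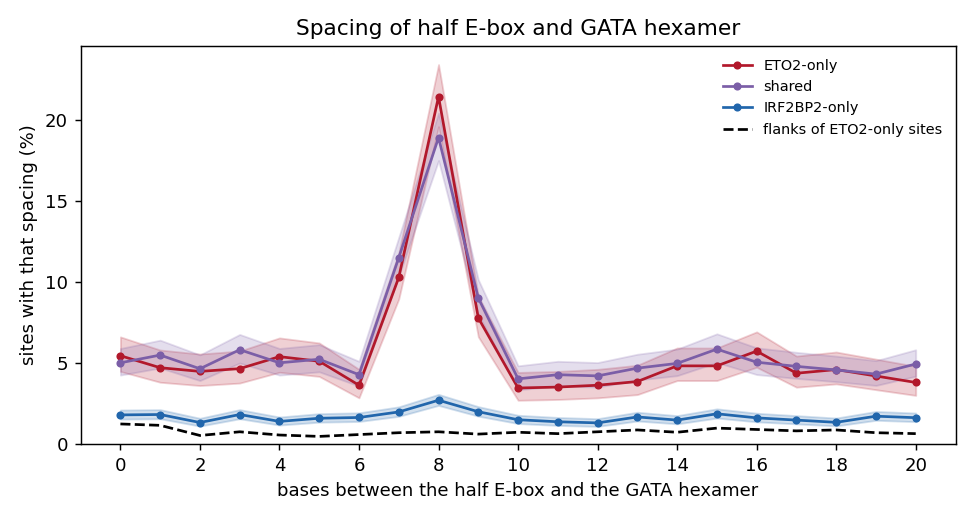
Share of sites (vertical axis, %) that hold a CTG and a GATA hexamer separated by 0 to 20 bases (horizontal axis), with 95% Wilson intervals as bands and the flanks of ETO2-only sites as a dashed line. ETO2-only and shared sites both peak at 8 bases, at 21.4 and 18.9% of sites, and the IRF2BP2-only sites reach 2.71% there.

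Among the patterns searched, the E-box CAGCTG differed most from shared sites in percentage points, whereas by odds ratio AP-1 did (0.464, against 0.473 for the E-box). CAGCTG is a motif of TAL1 partners and of other basic helix-loop-helix factors. It stood in 260 ETO2-only sites (14.8%, interval 13.2 to 16.5%), in 26.8% of shared sites and in 31.0% of IRF2BP2-only sites. The difference from shared sites was −12.0 percentage points (interval −14.4 to −9.66, exact p = 9.57e-22) and that from IRF2BP2-only sites −16.3 points (exact p = 2.19e-47). In ETO2-only sites the share was 1.58 times that of the flanks (9.38%), and in shared sites 2.4 times that of their own. The classes also differed outside the composite motif, with 13.2% of ETO2-only and 25.7% of shared sites without it holding CAGCTG. Along the fold enrichment of ETO2-only sites the share was 14, 14.8 and 15.5% in the same 3 groups.

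ETS, RUNX and AP-1 motifs were also less frequent at ETO2-only than at shared sites. The ETS pattern (AGGAAA or AGGAAG or CGGAAA or CGGAAG), read by a family that includes PU.1 and FLI1, stood in 55.3 against 62.9% (exact p = 9.12e-07). The RUNX pattern (TGTGGTT or TGTGGCT) stood in 17.7 against 22.7% (exact p = 7.06e-05), and here the IRF2BP2-only sites had a share of 16.9% (exact p = 0.45). The AP-1 pattern (TGACTCA or TGAGTCA), read by FOS, JUN and NFE2 dimers, stood in 4.03 against 8.32% (exact p = 1.72e-08) and in 14.3% of IRF2BP2-only sites (exact p = 1.25e-39). At ETO2-only sites AP-1 was 1.21 times as frequent as in the flanks, the lowest ratio of the patterns searched. The GC-rich pattern of SP and KLF factors (CCCGCCC) stood in 2.95% of ETO2-only and 3.52% of shared sites (exact p = 0.416) but in 10.3% of IRF2BP2-only sites (exact p = 1.63e-27). A match says only that these letters stand in the window, and all patterns were searched on both strands.

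A search over all 2080 words of 6 bases pointed the same way. Between ETO2-only and shared sites 30 words differed (1.44% of words tested, Fisher's exact test, adjusted p of 0.05 or less), 6 of them higher at ETO2-only and 24 higher at shared sites, and 274 words had an unadjusted p under 0.05. CAGCTG led the words higher at shared sites (exact p = 8.85e-19). ACAGCT, which overlaps it, followed with 17.9 against 25% (exact p = 2.31e-05), then ACCGCA, part of a RUNX site on the other strand, with 2.9 against 6.23% (exact p = 0.000197), and CGGAAG with 4.32 against 7.51% (exact p = 0.0064). The words higher at ETO2-only sites were AT-rich, led by AGTAGA with 10.0 against 6.41% (exact p = 0.00756). ATTAAA and TATAGA and ATGTAG were also called, at exact p = 0.0405 each, yet they were rarer at ETO2-only centres than in the flanks. The median GC content of the window was 49.2% in the ETO2-only class, against 50.2% in the shared class and 51.2% in the IRF2BP2-only class. The number of words called fell to 7 within 50 bp of the centres, to 7 among sites of high fold enrichment and to 6 without chromosomes 1, 12 and 13.

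ETO2-only sites lay mostly away from promoters. Of the 1760 centres, 861 (48.9%) fell in introns of protein-coding genes, 819 (46.5%) between genes and 80 (4.55%) in exons. The median distance to the nearest TSS of a protein-coding gene was 22358 bp, against 20609 bp in the shared class and 8540 bp in the IRF2BP2-only class. A TSS lay within 5 kb of 304 sites (17.3%, interval 15.6 to 19.1%), of 19.6% of shared sites (adjusted over 12 position tests, exact p = 0.0898) and of 42.8% of IRF2BP2-only sites (exact p = 2.84e-97). Within 1 kb the shares were 3.75, 5.6 and 26.5%, and here ETO2-only sites were also below shared sites (difference of −1.85 points, interval −3.07 to −0.578, exact p = 0.00905). The share in introns was indistinguishable from that of shared sites (exact p = 0.736) and above the 39.5% of IRF2BP2-only sites (exact p = 9.38e-13).

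The interval of an ETO2-only site was 793 bp wide at the median (628 to 957 bp between the quartiles), and its fold enrichment over IgG was 8.75 (6.37 to 13), with extremes of 2.04 and 70. Shared sites had a median fold of 10.2. The highest folds belonged to sites in an intron of Aff3, a member of the AF4 family (chr1:38504346-38504892, 70-fold), upstream of Chrm3, a muscarinic receptor (chr13:10053019-10053924, 65-fold), and upstream of Ddit4, an inhibitor of mTOR (chr10:59432551-59433326, 62-fold). Gm5121, Dusp13, Gripap1, Prim2, Iqsec1, Ikzf2 and Rptor completed the 10 highest, with folds of 45 to 50, and a site near Gata6 tied with Rptor. Of these 10 sites, 5 held the composite motif and all held a GATA hexamer. None of the 10 centres lay within 5 kb of a TSS. The Aff3 window holds 3 hexamers, capitals marking them on either strand and the CTG of the composite, read on the plus strand.
Aff3 window, chr1:38504534-38504734: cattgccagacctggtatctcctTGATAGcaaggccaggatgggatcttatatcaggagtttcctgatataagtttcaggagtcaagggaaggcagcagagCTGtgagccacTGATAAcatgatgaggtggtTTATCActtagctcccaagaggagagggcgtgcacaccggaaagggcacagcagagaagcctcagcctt

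The sites were not isolated from those of the other classes. Within 10000 bp of an ETO2-only centre lay another ETO2-only site in 11% of cases, a shared site in 15.6% and an IRF2BP2-only site in 23.8%. The interval itself overlapped that of an IRF2BP2-only site in 94 cases and that of a shared site in 49, so ETO2-only describes the centre of a site and not its surroundings. In 18 pairs of neighbouring ETO2-only sites the intervals touched or overlapped, and such neighbours share DNA and are not independent.

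The sites were spread unevenly over the chromosomes. Chromosome 1 held 198 ETO2-only sites (11.2%), against 7.25% of shared (adjusted over 40 chromosome tests, exact p = 3.18e-05) and 4.83% of IRF2BP2-only sites (exact p = 1.58e-20). Chromosome 13 held 161 (9.15%), against 4.98% (exact p = 9.38e-07) and 3.25% (exact p = 1.86e-22), and chromosome 12 held 96 (5.45%), against 3.66% (exact p = 0.0162) and 3.1% (exact p = 2.65e-05). Chromosome 6 was also above shared sites, with 5.97 against 4.32% (exact p = 0.0473). Chromosome 5 was below, with 4.2 against 7.55% (exact p = 3.17e-05). Put together, 455 of the 889 ETO2 sites of chromosomes 1, 12 and 13 (51.2%, interval 47.9 to 54.5%) were ETO2-only, against 36.2% (34.7 to 37.8%) elsewhere, a grouping made after seeing the data. Their fold enrichment was the same as elsewhere, 8.75 at the median. The composite motif stood in 30.3% of them and in 35.2% of the others.

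**Figure D3:**
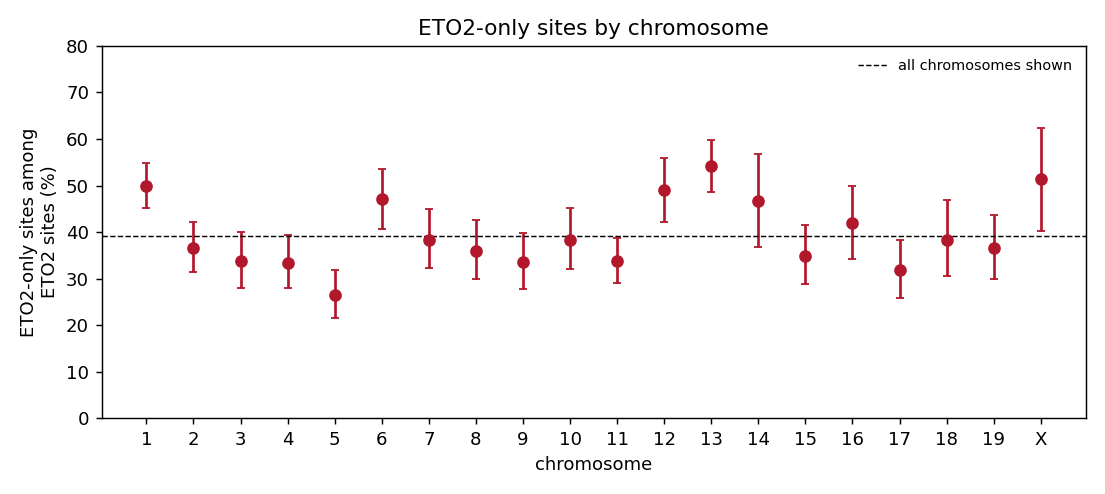
Share of ETO2-only sites among all ETO2 sites (ETO2-only and shared, vertical axis, %) on each chromosome (horizontal axis), with 95% Wilson intervals and the share over all chromosomes shown as a dashed line. Chromosomes 1, 12 and 13 stand at 50, 49 and 54.2%, close to the X chromosome at 51.4%, and chromosome 5 is lowest with 26.4%.

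The single nearest protein-coding gene within 1 Mb was assigned to 1758 of the sites. This gave 1482 genes, of which 1257 had 1 ETO2-only site, 184 had 2, 33 had 3, 6 had 4 and 2 had 5. A shared site was also nearest to 458 of these genes and an IRF2BP2-only site to 738, and 611 genes had neither. Of the 941 sites inside a gene, 261 lay in a gene other than the assigned one, so an assignment names a neighbour and not a target. Gata1 and 1500009L16Rik had the most sites, 5 each. In Gata1, the master factor of red cell differentiation, 4 of them stood in the intron at chrX:7542222-7547061 with folds of 8.25 to 33, and 3 of these 4 had no GATA hexamer within 100 bp of the centre. The site upstream of Gata1 (chrX:7570188-7570936, 14-fold) held a composite motif. Aff3, Cuedc1, Daf2, Ipo11, Prpf18 and Utp6 had 4 sites each. The sites of Prpf18 lay in Frmd4a, those of 1500035N22Rik in Prkag2 and those of 3300002A11Rik in Foxn3.

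Regulators of blood cells were frequent among the neighbours. Of a list of 34 blood transcription factors, 17 (50%) were nearest to an ETO2-only site, against 6.68% of the 22176 protein-coding genes. They were Gata1, Gata2, Klf1, Klf3, Klf6, Nfe2, Bach2, Ikzf1, Myc, Fli1, Ets2, Runx1, Foxo3, E2f2, Mafk, Meis1 and Hhex. All but Hhex also had a shared or IRF2BP2-only site. Of the 34, 19 were nearest to a shared and 26 to an IRF2BP2-only site, against 2045 and 5110 of all protein-coding genes. Of 31 genes for the LDB1 complex, its partners and NCOR co-repressors, 12 had a shared and 18 an IRF2BP2-only site. An ETO2-only site was nearest to 10 of the 31, among them those for ETO2, IRF2BP2 and GFI1B. Cbfa2t3 itself had 2 such sites, 7 shared and 10 IRF2BP2-only sites, and Irf2bp2 had 1, 2 and 10. The Klf1 site lay 58 bp and the Gfi1b site 34 bp before the TSS. ETO2-only sites were also nearest to 4 of 15 genes of haem biosynthesis, 8 of 29 of red cell membrane and transport and 6 of 26 of KIT and erythropoietin receptor signalling. They were nearest to 5 of 35 genes of lipid metabolism and 4 of 24 of the platelet and myeloid lineages. In the same order of lists, shared sites were nearest to 8, 21, 14, 12 and 8 genes and IRF2BP2-only sites to 7, 14, 19, 25 and 4. Genes with wide surroundings collect more sites, and the shares were not tested.

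The RNA libraries differed in depth and in how far the targeted gene fell. The shRNA libraries held 44519414 to 57684583 counts and those of Gfi1b and MEL differentiation 9929311 to 19623105. Erythroid markers were high in all controls, with all 7 above 5 RPKM, and T cell, B cell, myeloid, fibroblast and endothelial markers were below 1 RPKM, apart from Cd3g at 1.42 in the non-induced cells. Of the 4 platelet markers, Pf4 and Gp1ba were above 1 RPKM in every control group and Gp9 in 4 of the 5. Cbfa2t3 stood at 400 and 427 CPM (counts scaled to library size with TMM) in Eto2 WT, at 202 and 244 in sh2 and at 123 and 145 in sh3. Irf2bp2 stood at 116 and 120 CPM in Irf2bp2 WT and at 92.2 and 94.9 in Irf2bp2 KD-sh1, a change of −0.33 on the log2 scale that missed the fold limit. Kdm1a stood at 152 CPM in Lsd1 WT and at 16.9 and 16.3 in Lsd1 KD. Gfi1b stood at 122 and 145 CPM in Gfi1b WT, at 216 in the library labelled Gfi1b KD replicate 1 and at 76.3 in replicate 2, so the first of these goes against its label.

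Genes nearest to ETO2-only sites, called their neighbours, rose more often than other genes when Cbfa2t3 was reduced. Of the 1482 genes, 1311 were listed in this comparison and 1090 had enough counts to be tested, and a call needed a log2 fold change of at least 0.5 in either direction with an adjusted p not above 0.05 (edgeR's quasi-likelihood test, Benjamini-Hochberg over all 12537 genes). Of these, 107 rose (9.82%), against 2.99% of all genes tested, and 38 fell (3.49%), against 2.75%. The median log2 fold change was 0.057 for the neighbours and 0.002 for all genes. The rises were most frequent close to a site. Where an ETO2-only site lay within 5 kb of the TSS, 47 of 237 genes (19.8%) rose and 5 fell. At 5 to 50 kb 53 of 641 (8.27%) rose, and beyond 50 kb 7 of 212 (3.3%) rose while 14 fell.

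Genes without a site of another class were counted apart. Among the 395 tested genes with ETO2-only sites and no other site, 40 rose (10.1%) and 13 fell (3.29%). Genes with shared but no ETO2-only sites rose in 9.66% of 1253 cases, genes with both in 13.3% of 369, genes with IRF2BP2-only sites alone in 1.15% of 2858, and genes to which no site was assigned in 1.55% of 7336. Of genes with a composite motif at an ETO2-only site 12.6% rose, and of those without 7.99%. Of the 136 genes with 2 ETO2-only sites 10.3% rose, and of the 33 with 3 or more 6.06%. Of the 107 rises, 12 were in genes that passed the filter on low counts (0.196 CPM in at least 2 libraries) through the KD libraries only, and of the 38 falls 3 were in genes that passed it through the controls only, so that the direction of these calls was fixed. They include, among the genes named below, the rises of Aqp8, Sash3, Agmat, Hbb-y, E130309D14Rik and Vit and the falls of Txk, Gnaq and Plet1, whose changes are given as a description. No differences between these gene groups were tested.

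**Figure D4:**
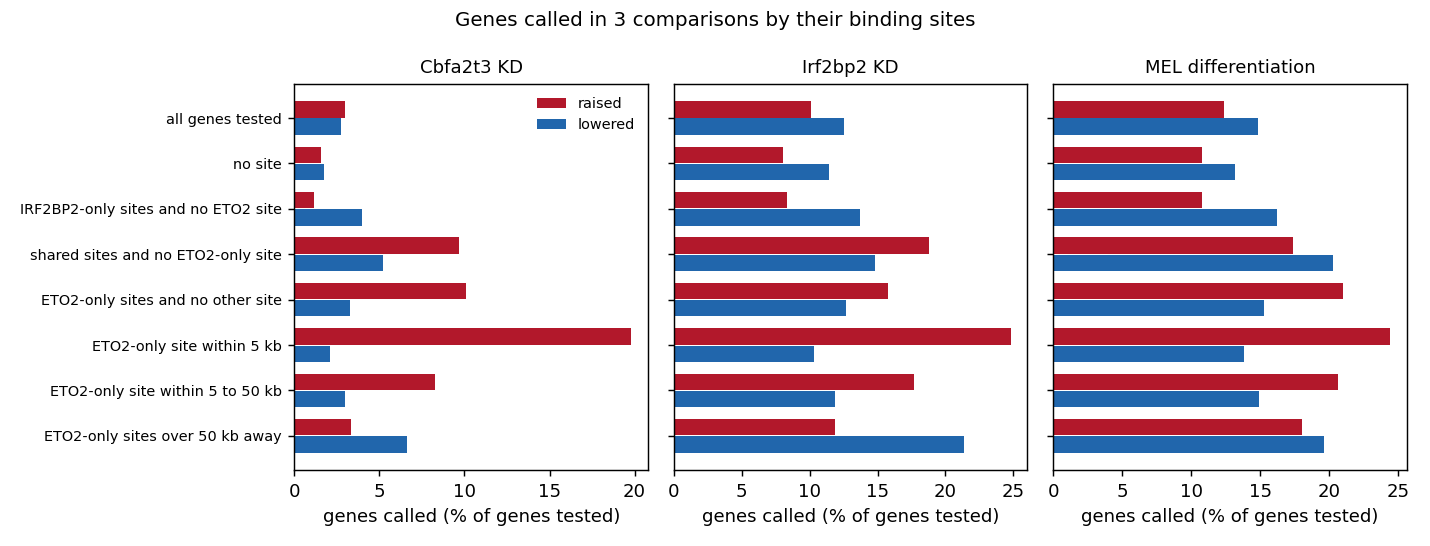
Share of tested genes called raised or lowered (horizontal axis, %) in the Cbfa2t3 KD, the Irf2bp2 KD and MEL differentiation, by the binding sites for which a gene was the nearest (vertical axis), with no error bars. In the Cbfa2t3 KD 19.8% of genes with an ETO2-only site within 5 kb rose, against 2.99% of all genes tested.

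The hairpins were also fitted one at a time. With sh2 alone 103 neighbours rose and 47 fell, among 882 genes called in all, and with sh3 alone 143 rose and 58 fell, among 1145. Both fits use the same 2 control libraries. In all 145 neighbours called in the joint fit the 4 KD libraries lay on the same side of both controls. The calls were made on these same libraries, and the share over all genes was not counted. It is therefore a description and adds no evidence to the count of 145. The count rested on the controls, since without Eto2 WT replicate 1 it was 53 of 279 genes called in all, and without replicate 2 it was 68 of 360, against 145 of 720 with both.

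The strongest rise was that of Aqp8, a water channel with 1 shared site and 1 ETO2-only site 2829 bp before its TSS (chr7:130602639-130603699, 11-fold, composite motif shown above). It stood at 0.118 and 0.141 CPM in the controls, 1.66 and 1.6 in sh2 and 2.44 and 1.87 in sh3, a log2 fold change of 3.84 ± 0.32 (SE). Both controls lie below the filter on low counts, so that Aqp8 was tested through the KD libraries only and had to differ in this direction. The rule that named this gene and those below required that control and KD libraries do not overlap. Acp5, tartrate-resistant acid phosphatase, had a site 115 bp before its TSS and rose from 10.5 and 9.75 CPM to 45.7 and 38.7 in sh2 and 78.7 and 66.1 in sh3 (2.5 ± 0.29, adjusted p = 0.00098). Mybpc3, a cardiac myosin-binding protein with a site 672 bp after its TSS, rose from 0.805 and 0.776 CPM to 5.66 and 5.03 in sh2 and 4.08 and 3.43 in sh3 (2.52 ± 0.25, adjusted p = 0.000497). These genes are unlike in function, and Acp5 was the most abundant of the rises named by the rule.

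The other large rises were in genes that the controls hardly expressed. Sash3, an adaptor protein of lymphocytes, rose from 0.235 and 0.159 CPM to 0.87 to 1.02 (log2 2.26 ± 0.26) with a single ETO2-only site in its intron and no other site. Col4a3, a chain of basement membrane collagen with 2 ETO2-only, 3 shared and 1 IRF2BP2-only sites, stood at 0.275 and 0.317 CPM in the controls and 0.811 to 2.29 in the KD libraries (2.13 ± 0.48, adjusted p = 0.0234). Agmat, agmatinase, has 2 IRF2BP2-only sites and 2 ETO2-only sites that touch each other, with folds of 37 and 13.5, and rose from 0.0393 and 0.0705 CPM to 0.218 to 0.364 (2.35 ± 0.50). Hbb-y, the embryonic β-like globin, had a site 12675 bp before its TSS, on the side of the locus control region, and 4 counts in the controls against 60 in the KD libraries. Their ratio per library size was 7.79 (counting interval 2.89 to 29.5), and reads can be shared with other globin genes. E130309D14Rik had 3 against 62 counts (ratio 10.7, interval 3.51 to 53.4) and Vit, an extracellular matrix protein, 3 against 55 (9.52, 3.09 to 47.6). Of the genes of this paragraph, Col4a3 alone was above the filter on low counts in both controls, and the direction of the others was fixed. With either control left out, the calls of Vit, Hbb-y, Agmat and Col4a3 were lost (adjusted p of 0.0597 to 0.206), and that of E130309D14Rik without replicate 1 (adjusted p = 0.0671).

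The largest fall was that of Thy1, a surface glycoprotein of lymphoid and progenitor cells with 1 ETO2-only site 596 bp after its TSS and no other site. It fell from 44.1 and 50.1 CPM to 10.5 and 14.7 in sh2 and 6.15 and 6.3 in sh3 (log2 −2.32 ± 0.29, adjusted p = 0.00162). Ccdc150, a coiled-coil protein, fell from 11.4 and 10.3 CPM to between 2.73 and 3.21 (−1.88 ± 0.11, adjusted p = 6.05e-05). Fam198b fell from 37.9 and 31.4 CPM to between 10.4 and 11.1 (−1.70 ± 0.09, adjusted p = 6.05e-05). Both were tight within each group.

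Further falls included immune and signalling genes. Cd84, a receptor of the SLAM family, fell from 23.0 and 22.3 CPM to between 7.53 and 8.63 (−1.50 ± 0.08, adjusted p = 6.05e-05) with 1 ETO2-only site and no other. Txk, a Tec family kinase, changed by −2.08 ± 0.31 and Angpt1, a ligand of the TEK receptor, by −2.02 ± 0.30 (adjusted p = 0.00366), both from controls near 1 CPM or below. Rap1gap2, an inhibitor of Rap1, changed by −1.42 ± 0.17 (adjusted p = 0.00119). Gnaq, Cd180 and Plet1 completed the rule with changes of −1.96, −1.48 and −1.31 and control levels of 0.264 to 1.2 CPM. Txk, Gnaq and Plet1 passed the filter on low counts through the controls only, which fixed their direction. The calls of Gnaq, Cd180 and Plet1 were each lost when either control was left out (adjusted p of 0.0864 to 0.278). They were also lost without some of the KD libraries, 3 for Gnaq, 3 for Cd180 and 2 for Plet1 (0.05 to 0.0872). For Gnaq and Cd180 the replicate number as a block also ended the call (adjusted p = 0.0509 and 0.0692), and for Plet1 DESeq2 did (0.0984). The calls of Txk and Angpt1 were lost without Eto2 WT replicate 1 (adjusted p = 0.0653 and 0.0688).

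**Figure D5:**
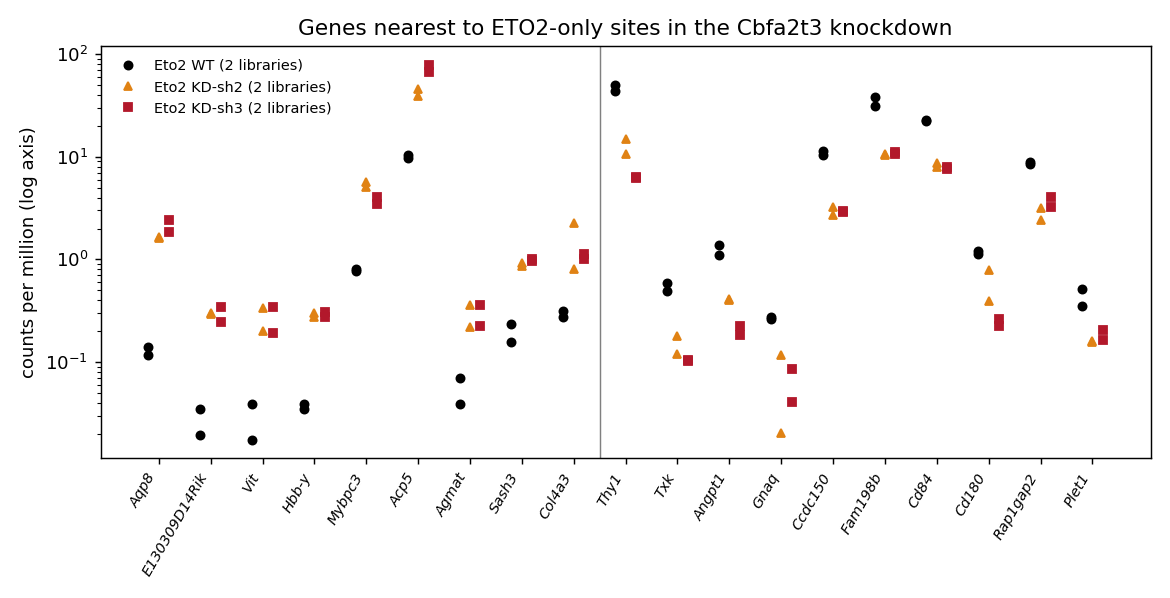
CPM (vertical log axis) of 19 genes nearest to ETO2-only sites in each library of the Cbfa2t3 KD, with 2 points for Eto2 WT, 2 for sh2 and 2 for sh3, and no error bars. The genes raised stand to the left of the grey line, led by Aqp8 (0.118 and 0.141 CPM in the controls, 1.6 to 2.44 in the KD), and the genes lowered to the right, led by Thy1, and the rule that chose them required no overlap between control and KD libraries.

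Genes of haem synthesis rose. Fech, Abcb10 and Tmem14c, each with an ETO2-only site, rose in the Cbfa2t3 KD, as did 10 of the 15 genes of the list, with none lowered. Fech, which inserts iron into the porphyrin ring, had its only site 3258 bp after the TSS and rose from 91.0 and 89.6 CPM to 169 and 161 in sh2 and 202 and 194 in sh3 (log2 1.01 ± 0.10, adjusted p = 0.000496). Abcb10, a mitochondrial transporter, changed by 0.90 ± 0.11 (adjusted p = 0.00118). Tmem14c, which moves a haem precursor into mitochondria, changed by 0.89 ± 0.08 (adjusted p = 0.000335). The lists were chosen with results of these libraries known and are not independent evidence of a direction.

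Genes of the red cell surface followed. Of the 8 with an ETO2-only site, 6 rose in the Cbfa2t3 KD, as did 18 of the 28 genes of the list that were tested, with none lowered. Tmcc2 rose most, from 13.9 and 16.0 CPM to between 38.9 and 48.4 (log2 1.55 ± 0.11, adjusted p = 0.000126). Kel and Rhd, carriers of blood group antigens with a single ETO2-only site and no other site, changed by 0.58 ± 0.11 (adjusted p = 0.0108) and 0.55 ± 0.09 (adjusted p = 0.00543). Ank1, Dmtn and Slc2a1, for ankyrin, dematin and the glucose transporter GLUT1, rose by 0.51 to 0.55, close to the limit of 0.5. Add3 and Stom did not pass the test, at −0.28 and 0.37.

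Of 16 blood transcription factors with an ETO2-only site that were tested, 3 rose and 1 fell, and over the list 4 of 29 rose and 2 fell. Runx1, Klf1 and Foxo3 rose by 0.58, 0.51 and 0.54 on the log2 scale (adjusted p = 0.00366, 0.00366 and 0.00138), all close to the fold limit. Meis1, a homeobox gene of progenitors, fell from 36.9 and 41.3 CPM to between 13.8 and 22.1 (−1.19 ± 0.16, adjusted p = 0.00219). Gata1, for all its 5 ETO2-only sites, stood at 451 and 468 CPM in the controls and 524 to 556 in the KD, a change of 0.23 that missed the fold limit (adjusted p = 0.0293). Gata2 stood at 0.005 (adjusted p = 0.99). Of the LDB1 complex and its partners only Runx1 and the target Cbfa2t3 passed both limits among 10 genes with a site, and Gfi1b stood at 0.35 (adjusted p = 0.00449).

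Of the receptor signalling genes with an ETO2-only site, none of 5 tested rose and 1 fell, and over the list 2 of 24 rose and 3 fell. Of the platelet genes 2 of 4 rose and none fell (4 of 13 and 0 over the list), and of the lipid genes 1 of 5 rose and 1 fell (2 of 35 and 1 over the list). Kit, the receptor of stem cell factor with 3 ETO2-only, 2 shared and 6 IRF2BP2-only sites, fell from 2.02 and 2.08 CPM to between 0.876 and 1.52 (log2 −0.82 ± 0.21, adjusted p = 0.0415), and Stat5b, Socs1, Tfrc and Irs2 were not called. Dusp4 had too few counts to be tested. The platelet genes Gp9 and Itgb3 rose by 0.68 ± 0.14 (adjusted p = 0.0161) and 0.97 ± 0.23 (adjusted p = 0.0276), and Treml1 was not called. Abca1, a cholesterol exporter with 1 ETO2-only, 2 shared and 1 IRF2BP2-only sites, fell from 149 and 151 CPM to between 75.2 and 105 (−0.80 ± 0.12, adjusted p = 0.00312), and Mgll, a monoglyceride lipase, rose by 1.18 ± 0.18 (adjusted p = 0.00395). Srebf1, Acsl4 and Abcg1 were not called.

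More genes were called in the Irf2bp2 KD, 2778 against 720 in the Cbfa2t3 KD, and neighbours of ETO2-only sites were again more often raised than genes at large. Of 1072 tested, 194 rose (18.1%), against 10.1% of all genes, and 144 fell (13.4%), against 12.5%. The filter on low counts fixed the direction of 7 of the rises, which passed it in the KD libraries only, and of 10 of the falls, which passed it in the controls only. Where an ETO2-only site lay within 5 kb of the TSS, 58 of 234 (24.8%) rose and 24 fell. At 5 to 50 kb 111 of 628 (17.7%) rose and 75 fell. Beyond 50 kb 25 of 210 (11.9%) rose and 45 (21.4%) fell. Genes with ETO2-only sites and no other site assigned to them rose in 15.8% of 387 cases and fell in 12.7%. An IRF2BP2 site assigned to another gene may still lie close to them. Of all ETO2-only sites, 56.2% lay within 50 kb of an IRF2BP2-only site. Genes with shared but no ETO2-only sites rose in 18.8% of 1243 and genes with no site assigned in 8.07% of 7178. The differences between these gene groups were not tested.

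The largest changes in the Irf2bp2 KD included genes already named. Mybpc3 rose from 0.707 and 0.702 CPM to 10.2 and 10.9 (log2 3.90 ± 0.18, adjusted p = 5.76e-11), Aqp8 from 0.0404 and 0.0803 to 0.856 and 1.01 (3.90 ± 0.50) and Acp5 from 5.45 and 7.42 to 67.9 and 78.4 (3.51 ± 0.13, adjusted p = 3.43e-12). Txk fell from 0.99 and 0.803 CPM to 0.135 and 0.0193 (−3.57 ± 0.54), and Ccdc68 from 0.687 and 0.502 to 0.0225 and 0.0773 (−3.45 ± 0.60). Angpt1 changed by −2.96 ± 0.44. Aqp8 passed the filter on low counts (0.204 CPM in at least 2 libraries) through the KD libraries only, and Txk, Ccdc68 and Angpt1 through the controls only, so that their direction was fixed and their changes are a description. The sizes of these 3 falls moved with the KD library left out. Txk was at −5.36 without replicate 1 and −2.70 without replicate 2, Ccdc68 at −4.57 without replicate 2, and Angpt1 at −3.86 and −2.35 without replicate 1 and 2.

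Fech, Abcb10 and Tmem14c rose here too, by 0.94 to 1.67 on the log2 scale (adjusted p from 2.12e-10 to 1.2e-06), as did 13 of the 15 genes of the list. Of the red cell genes 5 of 8 rose and 2 fell, and over the list 17 of 27 rose and 2 fell. Add3 fell by 0.66 on the log2 scale (adjusted p = 5.44e-06), and Slc2a1 fell from 77.0 and 73.7 CPM to 35.1 and 42.9 (−0.95 ± 0.10, adjusted p = 5.45e-07) where it had risen in the Cbfa2t3 KD. Tfrc, the transferrin receptor, with 1 ETO2-only site and no other, rose from 267 and 244 CPM to 868 and 976 (1.85 ± 0.10, adjusted p = 2.12e-10), against 0.38 (adjusted p = 0.105) in the Cbfa2t3 KD. Among the transcription factors 7 of 16 rose and 2 fell, close to the 13 of 29 raised and 5 lowered over the list, with E2f2 at 1.41 ± 0.09 (adjusted p = 1.2e-09) and Klf1 at 1.04 ± 0.08 (adjusted p = 3.95e-08) raised most. Meis1 fell as before (−1.50 ± 0.10, adjusted p = 4.93e-09). The 2 knockdowns have separate controls, and the difference between them was not tested.

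In MEL differentiation 1022 neighbours were tested. Of these, 214 rose (20.9%), against 12.4% of all genes, and 159 fell (15.6%), against 14.8%. Of the rises 13 were in genes that passed the filter on low counts in the induced libraries only and of the falls 19 in the non-induced only, which fixed their direction. Genes with ETO2-only sites and no other site rose in 21% of 352 cases, and genes with no site assigned in 10.8% of 6689. With an ETO2-only site within 5 kb 24.4% of 225 genes rose and 13.8% fell, and beyond 50 kb 18% of 194 rose and 19.6% fell. Cgn, the tight junction protein cingulin, with 1 ETO2-only site 20740 bp after its TSS (18-fold, composite motif) and no other site, rose from 1.09 and 4.45 CPM to 397 and 363 (log2 7.19 ± 0.50, adjusted p = 9.44e-07). Without MEL non-induced replicate 1 the change was 6.40 and without replicate 2 it was 8.43. It had also risen in the Cbfa2t3 KD, from 3.89 and 4.39 to between 10.6 and 14.9 CPM (1.67 ± 0.17, adjusted p = 0.000502), and in the Irf2bp2 KD, from 5.9 and 5.9 to 57.0 and 69.6 CPM (3.42 ± 0.12, adjusted p = 1.63e-12).

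The other genes of the rule were at 0 counts in both libraries of one group. Against a floor of 3 counts over that group, the proteoglycan genes Prelp and Spock2 were at least 32.3-fold and 12.6-fold higher after induction. The genes Allc, Lilrb4 and Gcnt1, for allantoicase, an inhibitory receptor and a glycosyltransferase, were at least 29.6-fold, 27.3-fold and 11.4-fold lower. The filter on low counts fixed the direction of these 5 genes and of Kit, which each passed it in 1 group only. The calls of Spock2, Lilrb4 and Gcnt1 were lost when a non-induced library was left out (adjusted p of 0.0512 to 0.105). Fech, Abcb10 and Tmem14c rose by 1.65 to 2.63 on the log2 scale (adjusted p from 1.12e-05 to 0.00044), and 6 of 8 red cell genes rose, close to the 22 of 28 over the list, with Rhd from 4.28 and 12.4 CPM to 159 and 184 (4.39 ± 0.41, adjusted p = 1.12e-05). Slc2a1 fell (−2.43 ± 0.61, adjusted p = 0.0103). Kit fell from 12.8 and 11.8 CPM to 1.24 and 0 (−4.28 ± 0.78), and Myc from 359 and 313 to 157 and 65.5 (−1.60 ± 0.34, adjusted p = 0.00395). The count of 373 neighbours among 3187 genes called was 232 of 1626 without MEL non-induced replicate 1, 211 of 1522 without replicate 2 and 244 of 1772 without MEL induced replicate 2.

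In simulated counts of the Gfi1b design edgeR called 12 of 200 genes changed by a log2 of 1, so most such changes would be missed. In the Gfi1b KD itself edgeR called none of the 991 neighbours tested and 0.0% of all 11190 genes. At an unadjusted p under 0.05 there were 784 genes, 129 of them neighbours, and DESeq2 called 47 genes at the same limits, 42 of them raised, of which 9 were neighbours, all raised. The median log2 fold change of the neighbours was 0.158, against 0.021 for all genes, and 0.266 for those with a site within 5 kb. Without the library labelled Gfi1b KD replicate 1 it was 0.067 for the neighbours and −0.006 for all genes. The KD libraries disagreed with each other, as Acp5 shows at 2.05 and 2.42 CPM in the controls, 51.1 in the library labelled Gfi1b KD replicate 1 and 2.71 in replicate 2. Without replicate 2 edgeR called 3148 genes and 350 neighbours, and without replicate 1 it called 396 and 55, each from 1 KD library that is assumed to vary like the controls.

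The Kdm1a KD has 1 control library, so its values carry no test. Of 1087 neighbours 163 (15%) were higher by a log2 of 0.5 or more in both KD libraries, against 13.1% of all genes, and 144 (13.2%) lower in both, against 9.8%. The median change was 0.001 for neighbours and for all genes, and it did not shift for genes with a site within 5 kb (−0.002). Single genes differed widely. Thy1, lowered in the knockdowns of Cbfa2t3 and Irf2bp2, stood at 39.4 CPM in Lsd1 WT and at 230 and 239 in Lsd1 KD. Gfi1b, with its ETO2-only site at the promoter, stood at 168 CPM in the control and 377 and 356 in the KD. Aqp8 was at 0.123 against 0.608 and 0.372 CPM, and Acp5 at 11 against 7.62 and 6.98. None of Fech, Abcb10 and Tmem14c passed 0.5 in both libraries. Of the 8 red cell genes 4 were lower and 1 higher in both, and over the list 14 of 27 were lower and 2 higher. Slc2a1 went from 108 to 25.4 and 21.9 CPM, and Rhd from 66.9 to 19.8 and 19.5.

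Neighbours of ETO2-only sites were expressed at intermediate levels in the controls. In Eto2 WT their median was 7.41 RPKM, against 3.77 for all genes listed, and 70.5% of the 1311 listed reached 1 RPKM. The 527 listed genes with ETO2-only sites and no other site had a median of 4.05 RPKM and reached 1 RPKM in 59.4%, close to the 59.5% of all genes. Genes with shared but no ETO2-only sites had 10 RPKM and those with IRF2BP2-only sites alone 12.9 RPKM. The medians of these gene groups stood in the same order in the other control groups, except that in Lsd1 WT the genes with ETO2-only sites and no other site were at 4.99 RPKM and all genes at 5 RPKM.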

How the data were processed

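Binding sites came from a deposited list of peak intervals that the authors made from 1 ETO2 and 1 IRF2BP2 ChIP-Seq library on mm9, with a fold enrichment ratio over IgG, an adjusted p-value and a class code for each deposited site. The 4 columns of ChIP and control reads in this list could not be tied to samples and were not used. For RNA-Seq, the authors deposited raw counts and RPKM values per gene, and the submitters' processing notes name Bowtie, TopHat2 and DESeq2 with no version. The deposited fold changes and p-values of the authors' own comparisons were not used.

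Windows of 201 bases around each centre were read from mm9 with pysam 0.24.0 and searched on both strands. Site counts were compared by two-sided Fisher's exact tests (scipy 1.17.1, Benjamini-Hochberg within each family), with 95% Wilson intervals and intervals of differences, all of which cover counting error only. Sites were assigned to the TSS of the nearest protein-coding gene within 1 Mb. Counts were tested with edgeR 4.0.16 (quasi-likelihood, TMM, filter on low counts) within each table, under R 4.3.3, with DESeq2 1.42.0 as an alternative. Both Cbfa2t3 hairpins entered 1 fit against their controls. Deviations of same-numbered libraries correlated by 0.118 to 0.252 between these 3 groups, so the numbers may pair them, and the fit with the number as a block is an alternative. The Kdm1a KD, with 1 control, was described by log2 CPM with a prior count of 2. Genes called "no site assigned" include symbols that did not match the annotation. In simulated counts of each tested design 200 genes were changed by a log2 of 1. The edgeR test recovered 172 of them for the Cbfa2t3 KD and 180 for the Irf2bp2 KD. It recovered 12 for the Gfi1b KD and 35 for MEL differentiation, with 3 to 9 false calls in each design.

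The sites named are the 10 with the highest fold. The genes named are the 10 largest rises and 10 largest falls in the Cbfa2t3 KD and the 3 largest of each in the Irf2bp2 KD, the Gfi1b KD and MEL differentiation, among neighbours called with no overlap between groups, the 10 genes with the most sites, members of the gene lists, and the targeted genes. The words named are among the 10 with the smallest p in each direction. Some genes named by this rule are not reported here. The members and lists were chosen with earlier results of these data known. The alternatives changed the window, the fold threshold, the flanks, the gene models, the normalization, the tool, the low-count filter, the fold limit, the distance limit and the libraries.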

Additional observations from a re-analysis of the deposited data

Results flagged for a closer look

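In the Cbfa2t3 KD libraries, Plet1 stood at 0.208 CPM in Eto2 KD-sh3 replicate 2 and at 0.158 to 0.163 CPM in the other KD libraries. The gap to the nearest of the others was 0.905 of the whole range. It was 1 of 28 genes looked at, chance alone sets apart about 1 group in 20 by this measure, and all these values lie below both controls.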

How the results depend on the processing

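The difference between ETO2-only and shared sites within 5 kb of a TSS, −2.29 percentage points, passed an unadjusted p of 0.05 when it was measured within 1 kb (−1.85), among sites with a fold at or above the class median (−3.35), with the TSS of every annotated gene (−3.31) and without chromosomes 1, 12 and 13 (−2.94, chosen after seeing the data). The difference in the composite motif, 1.17 points, turned to −1.14 among sites with a fold at or above the class median, and neither value passed the test. Its ratio to the flanks fell from 16.4 to 13.6 with flanks 5000 bp away. The 30 words that differed became 7 within 50 bp of the centre, 7 among sites of high fold and 6 without those chromosomes. The E-box differences and those from IRF2BP2-only sites kept their direction and their side of the threshold under the alternatives run. With no limit on the fold change the neighbours called were 248 in the Cbfa2t3 KD (145 with the limit) and 595 in the Irf2bp2 KD (338). The number of all genes called without that limit was not counted. Among genes with no other site, which are fewer, 53 of 395 were called in the Cbfa2t3 KD (13.4%, against 5.74% of all genes tested). The counts were 110 of 387 in the Irf2bp2 KD (28.4 against 22.5%) and 128 of 352 in MEL differentiation (36.4 against 27.2%). In the Kdm1a KD 121 of 397 passed the fold limit in both libraries (30.5 against 22.9%). Leaving out 1 library gave 53 to 164 in the Cbfa2t3 KD, 315 to 366 in the Irf2bp2 KD, 0 to 350 in the Gfi1b KD, 211 to 388 in MEL differentiation and 360 to 361 in the Kdm1a KD. In the Gfi1b KD, 0 became 9 with DESeq2 (of 47 genes called in all) and 95 with no filter on low counts (of 411). The cause was not tested. With the replicate number as a block the Cbfa2t3 KD had 132 neighbours of 632 genes called and the Irf2bp2 KD 340 of 2834. The Gfi1b KD had 0 of 0 and MEL differentiation 447 of 3916. In the Cbfa2t3 KD the calls of Gnaq and Cd180 were lost with the block (edgeR's quasi-likelihood test, adjusted p = 0.0509 and 0.0692). Same-numbered libraries deviated together in the Cbfa2t3 KD, with correlations of 0.252, 0.118 and 0.246 between its groups. The other comparisons have 1 correlation each, 0.025 in the Irf2bp2 KD, 0.002 in the Gfi1b KD and 0.196 in MEL differentiation. The last lies within the range of the Cbfa2t3 KD, so the number may pair the MEL libraries too. The fit without the block called 373 neighbours of 3187 genes there. For the single genes named and the ratios, 302 values under an alternative kept their call, 32 lost it and 1 moved. An alternative that leaves out repeat-masked sites was not run, because the genome used is not masked. The Gfi1b and MEL libraries are the shallowest, and the part of depth in their counts of calls was not tested.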
